A study of Mus musculus with 4 samples.

Results

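The mitochondrial genome of the mouse gives rise to 37 annotated RNAs, and all 37 were listed in the deposited table of 32592 genes, where they were taken as the rows whose symbol starts with mt-. They fall into 13 protein genes, 2 ribosomal RNAs (mt-Rnr1 and mt-Rnr2) and 22 transfer RNAs. Each of the 37 matched a GENCODE M21 gene by ID, and positions given here are those of the mitochondrial chromosome (M) in that annotation of GRCm38, whereas the authors used mm9. The values came from poly(A) RNA sequencing of CCE cells, mouse embryonic stem cells from strain 129/Sv grown without feeders, in medium with leukemia inhibitory factor. The 2 samples labelled knockdown had received short hairpin RNAs against Eif4a2, an RNA helicase of translation, and the 2 samples labelled control had received control constructs. All 4 samples were selected in puromycin at 1 µg/mL for 3 days and collected on day 4.5. The protocol names 2 hairpins against Eif4a2 (sheIF4A2-2 and sheIF4A2-3) and 2 control constructs (shLuc and shEV) without saying which sample received which, so a difference between the samples of a group cannot be told apart from a difference between constructs. The labels do not tell whether samples of 1 group were grown separately, and the p-values below therefore speak of the spread among these 4 samples, part or all of which may be technical.

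Mitochondrial DNA is copied into long transcripts of each strand by the polymerase POLRMT, and these are cut at the transfer RNAs that lie between most of the other genes, so that messenger, ribosomal and transfer RNAs start from shared precursors. The messenger RNAs encode core subunits of respiratory complexes I, III and IV and of ATP synthase, the 2 ribosomal RNAs form the mitochondrial ribosome, and the transfer RNAs decode its messages. Most mitochondrial messenger RNAs carry short poly(A) tails and can be caught by oligo(dT), the ribosomal RNAs carry at most a few added adenines, and transfer RNAs receive CCA ends, so a poly(A) library does not sample the 3 classes alike. Most genes lie on the plus strand of the annotation, while mt-Nd6 and 8 of the transfer RNAs lie on the minus strand.

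Recovered reads numbered 10646302 in knockdown 1, 12009899 in knockdown 2, 13681765 in control 1 and 4604200 in control 2. Levels are normalized counts, that is reads scaled to the effective library size that the authors used, and 3 reads corresponded to 0.266 and 0.234 in the knockdown-labelled libraries and to 0.221 and 0.679 in the control-labelled libraries. The targeted transcript went against its label. Eif4a2 stood at 753 and 814 normalized counts in the knockdown-labelled libraries, against 531 and 379 in the control-labelled libraries (log2 change 0.80, SE 0.15, adjusted p = 0.0140 in limma). Every direction below is therefore one between labels. All 8 embryonic stem cell markers passed the filter on low counts, with sums of 8710 and 8343 normalized counts in the knockdown-labelled libraries against 11364 and 10877 in the control-labelled libraries. Of these 8, Zfp42, Esrrb and Sox2 fell (log2 change -1.06, -0.66 and -0.49, limma adjusted p = 0.00256, 0.00548 and 0.0114). The other 5 were not called. Of 10 fibroblast markers 6 passed the filter, with sums of 52.2 and 52.5 in the knockdown-labelled libraries against 36.0 and 30.3 in the control-labelled libraries, and the defining markers Dcn and Lum were at 0 in all 4. Of these 6, Col1a1 (log2 change 1.27, adjusted p = 0.0121 in limma) and Pdgfrb (0.93, adjusted p = 0.0137) rose. The other 4 were not called, with Col1a2 and Pdgfra higher (log2 change 0.65 and 0.43) and Thy1 and Twist1 slightly lower (-0.02 and -0.12). Trophectoderm markers, 5 of 6 tested, had sums of 105 and 115 in the knockdown-labelled libraries against 86.5 and 56.8 in the control-labelled libraries, with Hand1 higher (log2 change 1.63, adjusted p = 0.0262 in limma) and Elf5 at 0 in all 4. The other 4 tested were not called, with Tfap2c, Cdx2 and Eomes higher (log2 change 0.67, 0.34 and 0.17) and Gata3 lower (-0.48). Tfap2c made up most of these sums, at 81.3 and 91.2 under the knockdown label against 69.7 in control 1 and 41.2 in control 2. Primitive endoderm markers, 6 of 6 tested with a lowest adjusted p of 0.204 for Pdgfra in limma, had sums of 37.2 and 39.1 in the knockdown-labelled libraries against 30.3 and 36.4 in the control-labelled libraries. The part of such cells in the results below was not tested. The control libraries differed from each other more than the knockdown-labelled libraries did, with a median absolute log2 difference over the genes tested of 0.20 between controls and 0.10 between the knockdown-labelled libraries, so each control is given on its own.

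Of the 37 members, 20 had at least 1 read and 17 were listed at 0 in all 4 libraries. Those at 0 were 6 protein genes, mt-Co2, mt-Atp8, mt-Atp6, mt-Co3, mt-Nd3 and mt-Nd4l, and 11 transfer RNAs. All 6 protein genes lay, with 5 of those transfer RNAs, in 1 unbroken stretch of 11 members from mt-Ts1 to mt-Nd4l (6870 to 10173), in which no member had a read, although mt-Co1 just before it was the most abundant member and mt-Nd4 just after it had at least 1531 reads in each library. Every mitochondrion needs these subunits, so the members of this stretch are said only to be listed at 0. GENCODE M21 places a row of unprocessed pseudogenes on chromosome 1 between 24611535 and 24616197. Windows of 100 bases, the read length, were compared letter for letter with transcripts of genes off the mitochondrial chromosome. Of the windows of mt-Co2, mt-Atp6, mt-Co3, mt-Nd3 and mt-Nd4l, between 97.6% and 99.9% occurred in such a transcript. For mt-Co1 and mt-Nd4, whose genes reach into the copied part, the shares were 30.8% and 60.8%. For each of the genes named so far with such shares, the copy that held the most windows lay in the row on chromosome 1. For mt-Nd2 the share was 3.19%, in a transcript of another copy, Gm13339 on chromosome 2, and for mt-Nd1, mt-Nd5, mt-Nd6, mt-Cytb and both ribosomal RNAs it was 0.00%. For mt-Atp8 no annotated copy was found among the transcripts. A read within a shared window has no single place of origin, and levels of mt-Co1 and mt-Nd4 per length are uncertain for that reason. The copy of mt-Nd4l, Gm10222, was identical to it over all 294 bases compared, and it was itself listed, with 14 and 18 reads in the knockdown-labelled libraries against 6 and 1 in the control-labelled libraries. Their first 60 bases are shown to make plain that letters cannot tell them apart.
mt-Nd4l: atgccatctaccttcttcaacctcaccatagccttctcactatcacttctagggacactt
Gm10222: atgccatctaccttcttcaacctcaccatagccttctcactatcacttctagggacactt

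The transfer RNAs with reads are short, and their sequences bear on what was counted. The 22 genes are 59 to 75 bases long, so a full 100-base read on one of them must run past its annotated ends. The 4 transfer RNAs with the highest normalized counts in the knockdown-labelled libraries are shown from 5′ to 3′ as DNA, with the anticodon in capitals.
mt-Te (glutamate, minus strand, 14071 to 14139): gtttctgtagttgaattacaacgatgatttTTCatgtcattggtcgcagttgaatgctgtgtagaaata
mt-Tw (tryptophan, plus strand, 4950 to 5016): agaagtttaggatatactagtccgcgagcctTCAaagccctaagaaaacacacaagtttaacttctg
mt-Tt (threonine, plus strand, 15289 to 15355): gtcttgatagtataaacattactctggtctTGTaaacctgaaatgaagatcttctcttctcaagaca
mt-Tp (proline, minus strand, 15356 to 15422): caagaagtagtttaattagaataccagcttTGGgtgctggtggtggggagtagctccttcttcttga

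The room around each transfer RNA on its own strand was set beside its reads. For each gene, the longest run of bases that touches it and no other annotated gene of the same strand was measured, a description chosen after the values were seen. Outside the stretch at 0 there were 17 transfer RNAs. All 11 with reads had at least 100 such bases, the tightest being mt-Tc with 100 (1 read in knockdown 2 and 1 in control 1) and mt-Tn with 105. The other 6, mt-Tf, mt-Tv, mt-Tl1, mt-Th, mt-Ts2 and mt-Tl2, had between 58 and 75 and were at 0. When genes of the opposite strand were counted as neighbours too, 3 of the 11 with reads still had 100 bases. Within the stretch, mt-Ts1 had at least 200 and mt-Td 140 bases on their own strand and were at 0. The strand setting of the authors' counting is not given in the sources used here, and its part in these counts was not tested.

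**Figure D1:**
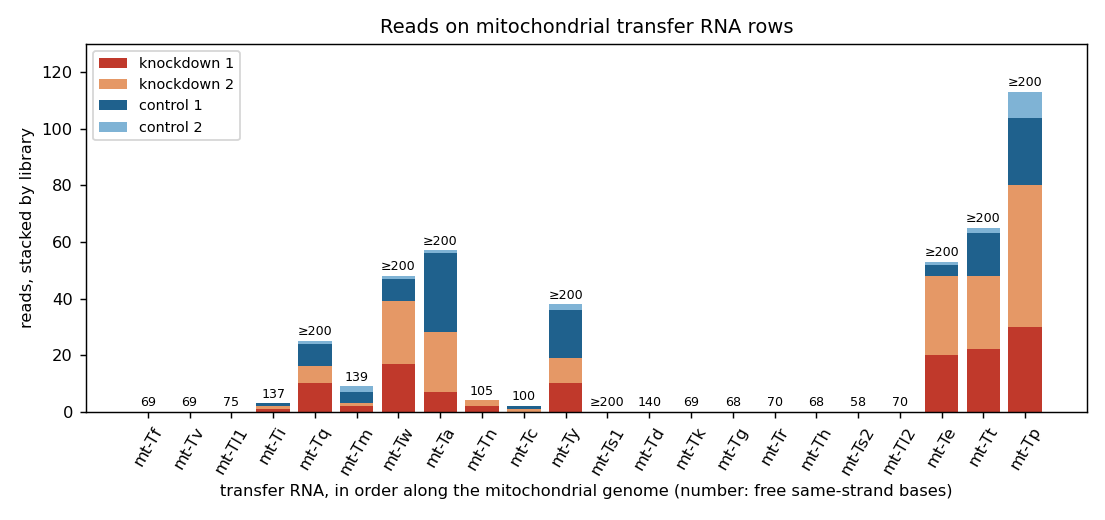
Reads on each of the 22 mitochondrial transfer RNA rows, stacked by library, in order along the genome; the number over each bar is the longest run of bases that touches the gene and no other gene of its strand (≥200 where it reached the limit of 200). Outside the unbroken stretch at 0, which holds mt-Ts1, mt-Td, mt-Tk, mt-Tg and mt-Tr, every bar above 0 stands under a number of at least 100.

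The 2 ribosomal RNAs were lower in the knockdown-labelled libraries than in either control. mt-Rnr1 (12S, of the small ribosomal subunit, 70 to 1024) was at 329 and 320.5 normalized counts in knockdown 1 and 2, against 712 in control 1 and 997 in control 2. mt-Rnr2 (16S, of the large subunit, 1094 to 2675) was at 358 and 411 in knockdown 1 and 2, against 649 in control 1 and 831 in control 2. The groups did not overlap for either, as for 66.8% of all genes tested, control 2 was the highest library for both, and the pair labelled knockdown differed less than the controls. mt-Rnr1 averaged 324.9 ± 6.22 in the knockdown-labelled libraries and 854 ± 202 in the control-labelled libraries (SD, n = 2 each), and it fell 2.59-fold (log2 change -1.37, SE 0.15, limma adjusted p = 0.00379). mt-Rnr2 averaged 384 ± 37.3 in the knockdown-labelled libraries and 739.8 ± 129 in the control-labelled libraries (SD, n = 2 each), and it fell 1.91-fold (log2 change -0.94, SE 0.13, limma adjusted p = 0.00657). Against these 2 of 2, 12.4% of all 14890 genes tested fell by the same rule, and 23% were called in either direction. An exact permutation test of 2 samples against 2 cannot go below 0.333, so the calls rest on the variance that limma shares across genes. In edgeR's quasi-likelihood test on the recovered reads, which called 25.1% of the genes, the adjusted p-values were 0.00189 and 0.00412, while the authors' deposited table gives log2 fold changes of -1.39 and -0.94.

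How large the fall was depended on the control used. The mean of the knockdown-labelled libraries was 0.456 times the level of control 1 and 0.326 times that of control 2 for mt-Rnr1, and 0.593 and 0.463 times for mt-Rnr2. The ratio between the ribosomal RNAs moved too. There were 0.920 and 0.780 reads of mt-Rnr1 per read of mt-Rnr2 in knockdown 1 and 2, against 1.10 in control 1 and 1.20 in control 2. Each ribosomal RNA fell under every setting tried, including each library left out.

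Oligo(dT) can also bind runs of adenine inside an RNA, so the longest such run of each ribosomal RNA is shown here in capitals with 25 bases on either side.
mt-Rnr1 (bases 611 to 665 of 955): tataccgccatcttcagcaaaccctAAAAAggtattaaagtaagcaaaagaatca
mt-Rnr2 (bases 370 to 426 of 1582): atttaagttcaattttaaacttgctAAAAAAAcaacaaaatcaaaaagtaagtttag
These runs of 5 and 7 lie within the range of the 7 protein genes with reads, whose longest runs held 3 to 8 adenines. The ribosomal RNAs were 37.8% and 38.2% adenine, against 22.2% to 36.9% in those protein genes.

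Nuclear RNAs that lack a poly(A) tail stood in the same order of libraries as the ribosomal RNAs. The RNA of RNase MRP, Rmrp, was at 15.6 and 10.7 normalized counts in knockdown 1 and 2, against 91.8 in control 1 and 459 in control 2. The RNA of RNase P, Rpph1, was at 1.51 and 1.09 in the knockdown-labelled pair, against 9.20 in control 1 and 26.9 in control 2. The U3 small nucleolar RNA Rnu3a was at 0.710 and 0.701 in the knockdown-labelled pair, against 13.2 in control 1 and 53.0 in control 2. These 3 fell (log2 change -3.89, -2.88 and -4.02, limma adjusted p = 0.00938, 0.00761 and 0.00587). Rn7sk, a regulator of transcription elongation, was at 1.60 and 1.71 in the knockdown-labelled pair, against 2.58 in control 1 and 3.62 in control 2, and did not pass (adjusted p = 0.0951 in limma). The telomerase RNA Terc did not share the order, with 3.64 and 3.66 in knockdown 1 and 2, 0.368 in control 1 and 3.17 in control 2. The summed normalized counts of 56 replication-dependent histone genes, whose messages end in a stem-loop, were 81.6 and 81.8 in knockdown 1 and 2, 137 in control 1 and 341 in control 2. Of these genes 32 were tested and 14 fell (43.8%, against 12.4% of all genes tested), with a median log2 change of -1.18, against a median of -0.01 over all genes tested. Without control 1 the count was 29, without knockdown 2 it was 9, and without a variance trend it was 5. The part of this difference between libraries in the fall of mt-Rnr1 and mt-Rnr2 was not tested. Of the 10 small RNAs looked for, 8 matched the table, 5 of these were tested and 2 were listed at 0.

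**Figure D2:**
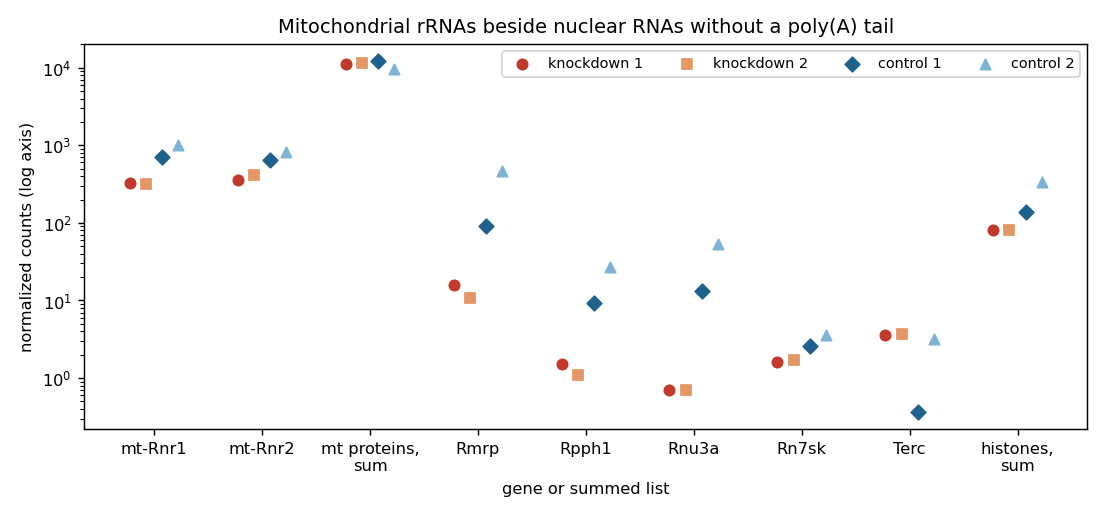
Normalized counts on a log axis in each library for mt-Rnr1, mt-Rnr2, the sum of the mitochondrial protein genes, 5 nuclear RNAs without a poly(A) tail and the sum of the replication-dependent histone genes. For every item except the protein sum and Terc the knockdown-labelled libraries are lowest and control 2 is highest; for the protein sum control 2 is lowest, at 9533.

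Among the 7 protein genes with reads, none passed in limma in either direction, against 23% of all genes tested, 1 (mt-Nd5) had an unadjusted p below 0.05, edgeR called none and DESeq2 called mt-Nd5 alone. Complex IV was represented by mt-Co1, the catalytic subunit of cytochrome c oxidase, at 4497 and 4612 normalized counts in knockdown 1 and 2, against 5153 in control 1 and 3723.5 in control 2. The knockdown-labelled libraries lay between the controls (log2 change 0.06, SE 0.16, limma adjusted p = 0.829). Complex III was represented by mt-Cytb, cytochrome b, at 2194 and 2301 in the knockdown-labelled pair, against 2306 in control 1 and 2175 in control 2, so the groups overlapped within a narrow range (log2 change 0.00, SE 0.10, limma adjusted p = 0.979).

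Complex I, the NADH dehydrogenase, was represented by 5 genes whose values did not all lie the same way. mt-Nd1, of the membrane arm where quinone binds, was at 1529.8 and 1615 in knockdown 1 and 2, against 1732 in control 1 and 1628 in control 2. The groups did not overlap but the step was small (log2 change -0.10, SE 0.09, limma adjusted p = 0.484). mt-Nd2, a membrane-arm subunit, was at 628 and 663 in the knockdown-labelled pair, against 640.2 in control 1 and 493 in control 2, and overlapped (log2 change 0.20, adjusted p = 0.289 in limma). mt-Nd4 was at 489 and 493 in the knockdown-labelled pair, against 459 in control 1 and 346 in control 2. mt-Nd5 was at 1387 and 1413 in the knockdown-labelled pair, against 1251 in control 1 and 871 in control 2. mt-Nd4 and mt-Nd5 were higher in both knockdown-labelled libraries than in either control. Yet neither passed in limma (log2 change 0.30 and 0.42, SE 0.13 and 0.16, adjusted p = 0.137 and 0.0990). mt-Nd6, the only protein gene of the minus strand, was at 382 and 381 in knockdown 1 and 2, between 471 in control 1 and 296 in control 2 (log2 change 0.03, SE 0.19, limma adjusted p = 0.919). In all, 3 of the 7 had groups that did not overlap, against 66.8% of all genes tested.

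For these genes the spread lay mostly between the controls. On the log2(value + 1) scale control 2 was below control 1 by 0.67 for mt-Nd6, by 0.52 for mt-Nd5, by 0.47 for mt-Co1 and by 0.40 for mt-Nd4, but by only 0.09 and 0.08 for mt-Nd1 and mt-Cytb, while knockdown 1 and 2 differed by at most 0.08 for each of the 7. A difference between controls as large as that of mt-Nd6 was exceeded by 7.60% of all genes tested, and one as large as that of mt-Cytb by 76.0%. Against each control alone, the sign turned for mt-Co1 and mt-Nd6, and for mt-Cytb within a few percent. The mean of the knockdown-labelled libraries was 0.884 times control 1 and 1.22 times control 2 for mt-Co1, and 0.810 and 1.29 times for mt-Nd6. Without control 1, limma called 5 of the 7 genes, all higher (mt-Co1, mt-Nd2, mt-Nd4, mt-Nd5 and mt-Nd6), and without control 2 it called 4, of which mt-Nd5 was higher and mt-Nd1, mt-Co1 and mt-Nd6 lower. Those fits take their spread from the 2 knockdown-labelled libraries alone.

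**Figure D3:**
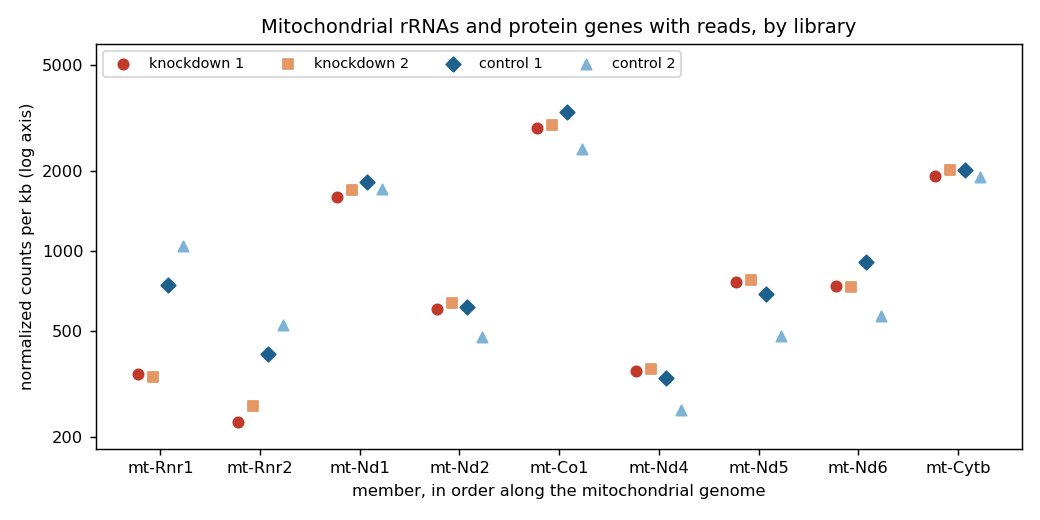
Normalized counts per kilobase of gene on a log axis for the 2 ribosomal RNAs and the 7 protein genes with reads, 1 symbol per library, in order along the mitochondrial genome. The knockdown-labelled libraries lie below both controls for the ribosomal RNAs and between or close to the controls for most protein genes.

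Per length, the order of the protein genes was much the same in both groups, apart from mt-Nd5 and mt-Nd6. In normalized counts per kilobase, mt-Co1 averaged 2948 ± 52.6 in the knockdown-labelled libraries and 2873 ± 654 in the control-labelled libraries, with mt-Cytb at 1964 ± 66.2 under the knockdown label and 1959 ± 81.0 under the control label, and mt-Nd1 at 1643 ± 62.7 under the knockdown label and 1756 ± 76.8 under the control label (SD, n = 2 each). Lower down came mt-Nd5 at 768 ± 9.98 under the knockdown label and 582 ± 147 under the control label, and mt-Nd2 at 622 ± 23.9 under the knockdown label and 546 ± 101 under the control label. mt-Nd6 stood at 737 and 733 in knockdown 1 and 2, against 907 in control 1 and 569 in control 2. By library, mt-Nd5 stood at 761 and 775 in knockdown 1 and 2, against 686 in control 1 and 478 in control 2. mt-Nd6 was thus below mt-Nd5 in both knockdown-labelled libraries and above it in both controls. mt-Nd2 stood at 617 in control 1 and at 475 in control 2, there close to mt-Nd5. These differences between genes were not tested. mt-Nd4 was lowest of the 7 at 356 ± 2.42 under the knockdown label and 292 ± 57.5 under the control label, with the limit from shared windows given above. The ribosomal RNAs, which dominate mitochondrial RNA in cells, did not lead these poly(A) libraries. mt-Rnr1 stood at 340.2 ± 6.51 under the knockdown label and 895 ± 211 under the control label, and mt-Rnr2 at 243 ± 23.5 under the knockdown label and 468 ± 81.4 under the control label. By mean, mt-Rnr1 ranked below mt-Nd4 in the knockdown-labelled libraries and above mt-Nd5 in the control-labelled libraries.

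The transfer RNA rows had few reads, and 2 of them rose. In all 22 rows together there were 121 and 167 reads in knockdown 1 and 2, against 110 in control 1 and 19 in control 2. After scaling, the 2 knockdown-labelled libraries stood above both controls. The reads of the pooled libraries gave a ratio of 1.67 (95% exact interval 1.35 to 2.07), 1.48 (1.18 to 1.86) against control 1 alone and 2.78 (1.75 to 4.68) against control 2 alone. These intervals cover counting error only. Of the 22 rows, 6 passed the filter on low counts, 5 had at most 10 reads in any library and were not tested, and 11 were at 0.

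mt-Te, the transfer RNA for glutamate, had 20 and 28 reads in knockdown 1 and 2, against 4 in control 1 and 1 in control 2. That is 1.78 and 2.18 normalized counts in the knockdown-labelled pair against 0.294 in control 1 and 0.226 in control 2, a ratio of 7.17 in pooled reads (95% exact interval 2.87 to 23.1). The groups did not overlap, and mt-Te rose (log2 change 1.24 on the log2(value + 1) scale, SE 0.23, limma adjusted p = 0.0134). mt-Tw, for tryptophan, had 17 and 22 reads in knockdown 1 and 2, against 8 in control 1 and 1 in control 2. Its pooled ratio was 3.24 (95% exact interval 1.54 to 7.60), with 2.75 (1.27 to 6.81) against control 1 alone and 7.15 (1.21 to 289.5) against control 2 alone, and it rose too (log2 change 0.90, SE 0.25, limma adjusted p = 0.0402). Both rows passed the filter through the knockdown-labelled libraries alone, since neither control reached its level of 0.883 CPM, so a count of calls among the rows that passed is not evidence about transfer RNAs as a class. Without control 1 the log2 changes were 1.28 for mt-Te and 1.09 for mt-Tw, and without control 2 they were 1.20 and 0.72. With 1 knockdown-labelled library fewer they stayed about as large but did not pass in limma. Without knockdown 1 they were 1.34 for mt-Te and 0.96 for mt-Tw (adjusted p = 0.0613 and 0.191 in limma), and without knockdown 2 they were 1.14 and 0.85 (adjusted p = 0.147 and 0.307 in limma). mt-Tw did not pass with libraries thinned to equal totals of reads (adjusted p = 0.0645). Over all genes tested, 10.5% rose.

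The other 4 rows tested did not pass. mt-Tp, for proline, had the most reads of any transfer RNA in total, though fewer than mt-Ta in control 1. It had 30 and 50 in knockdown 1 and 2, against 24 in control 1 and 9 in control 2 (limma adjusted p = 0.135). Its pooled ratio was 1.81 (95% exact interval 1.19 to 2.81). Against control 1 alone the ratio was 1.88 (1.18 to 3.10), and against control 2 alone it was 1.63 (0.817 to 3.69). mt-Tt, for threonine, had 22 and 26 in the knockdown-labelled pair, against 15 in control 1 and 2 in control 2 (limma adjusted p = 0.0723). Its pooled ratio was 2.11 (95% exact interval 1.19 to 3.91), with 1.80 (0.993 to 3.47) against control 1 alone and 4.40 (1.15 to 37.4) against control 2 alone. mt-Ta, for alanine, ran differently in each library. It had 7 and 21 reads in knockdown 1 and 2, 28 in control 1 and 1 in control 2 (limma adjusted p = 0.899). Its pooled ratio was 0.721 (95% exact interval 0.413 to 1.26). Against control 1 alone the ratio was 0.564 (0.322 to 0.988), and against control 2 alone it was 5.13 (0.849 to 209.9). mt-Ty, for tyrosine, had 10 and 9 in the knockdown-labelled pair, against 17 in control 1 and 2 in control 2 (limma adjusted p = 0.979). Its pooled ratio was 0.747 (95% exact interval 0.374 to 1.49). Against control 1 alone the ratio was 0.630 (0.310 to 1.29), and against control 2 alone it was 1.74 (0.420 to 15.4). mt-Ta and mt-Ty lie side by side with mt-Tn and mt-Tc on the minus strand ahead of mt-Co1, and mt-Tn and mt-Tc had at most 2 reads in any library. The 8 minus-strand rows together had 79 and 117 reads in knockdown 1 and 2, against 82 in control 1 and 14 in control 2. The 14 plus-strand rows had 42 and 50 in the knockdown-labelled pair, against 28 in control 1 and 5 in control 2.

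**Figure D4:**
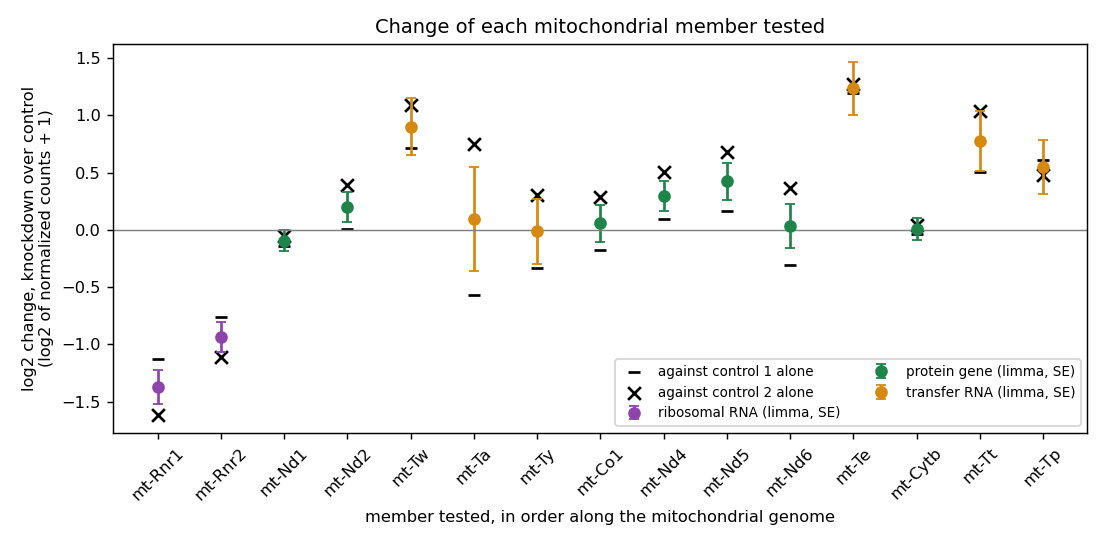
Log2 change of the 15 mitochondrial members tested, in order along the genome: filled circles give the limma estimate with its SE, coloured by class, and black marks give the mean of the knockdown-labelled libraries against control 1 alone (dash) or control 2 alone (cross). The ribosomal RNAs lie below 0 against either control and mt-Te and mt-Tw above it, while mt-Co1, mt-Nd6, mt-Cytb, mt-Ta and mt-Ty fall on opposite sides of 0 against the 2 controls.

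The balance of the classes could be read within each library, free of scaling between libraries. Protein genes took 94.1% and 93.9% of the mitochondrial reads in knockdown 1 and 2, against 89.8% in control 1 and 83.9% in control 2. Ribosomal RNAs took 5.82% and 5.98% in the knockdown-labelled pair, against 10.2% in control 1 and 16.1% in control 2. Transfer RNAs took 0.0910% and 0.106% in the knockdown-labelled pair, against 0.0605% in control 1 and 0.0378% in control 2. For each 100 reads on protein genes there were 6.19 and 6.37 reads on ribosomal RNAs in knockdown 1 and 2, against 11.3 in control 1 and 19.2 in control 2. In each of these shares the knockdown-labelled libraries were close to each other and stood outside the range of the controls, and the controls stood far apart. The 3 shares add up to 100% and transfer RNAs held little of it, so the protein share largely follows from the ribosomal share. After scaling between libraries, protein genes summed to 11106 and 11477 normalized counts in the knockdown-labelled pair, between 12011 in control 1 and 9533 in control 2. Mitochondrial rows as a whole took 1.25% and 1.31% of all reads in the knockdown-labelled pair, against 1.33% in control 1 and 1.09% in control 2, so on this measure the groups overlapped. In bulk samples, fewer cells and less RNA per cell cannot be told apart.

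**Figure D5:**
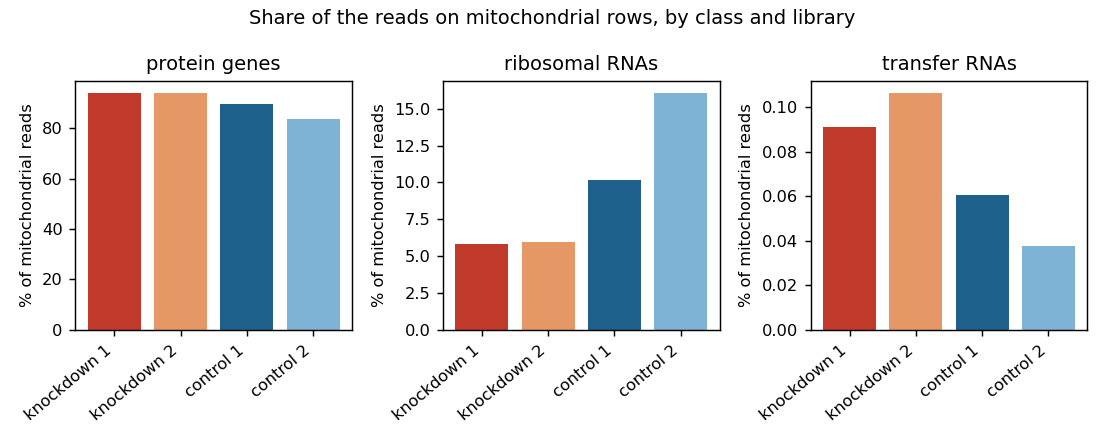
Share of the reads on mitochondrial rows that fell on protein genes, ribosomal RNAs and transfer RNAs, in percent, 1 bar per library, each panel with its own axis from 0. The ribosomal share is 5.82% and 5.98% in the knockdown-labelled libraries, 10.2% in control 1 and 16.1% in control 2; the transfer RNA share is 0.0910% and 0.106% in the knockdown-labelled libraries, 0.0605% in control 1 and 0.0378% in control 2.

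Nuclear genes for the machinery that makes and handles these RNAs gave calls that were all lower when all 4 libraries were used with the scaling above. The shares called were 22.2%, 13.6% and 10.5% in the transcription, processing and modification lists, against 23% of all genes tested. Of 18 genes of mitochondrial transcription and DNA maintenance 4 fell and the other 14 did not pass, with a median log2 change of -0.13. Tefm, the transcription elongation factor, was at 13.3 and 11.3 normalized counts in knockdown 1 and 2, against 28.3 in control 1 and 23.5 in control 2 (log2 change -1.01, SE 0.16, limma adjusted p = 0.0087). The termination factor family member Mterf3 (log2 change -0.48, limma adjusted p = 0.0394), the exonuclease Mgme1 (-0.37, adjusted p = 0.0334) and Tfb1m, a methyltransferase of the 12S RNA named after its values were seen (-0.62, adjusted p = 0.0408), fell as well. The polymerase Polrmt was at 84.7 and 93.6 in the knockdown-labelled pair, against 68.6 in control 1 and 82.6 in control 2, and did not pass (log2 change 0.24, limma adjusted p = 0.172). Tfam, which packs mitochondrial DNA and starts its transcription, was at 80.2 and 71.2 in the knockdown-labelled pair, against 91.9 in control 1 and 95.5 in control 2, and missed the threshold (log2 change -0.31, limma adjusted p = 0.0576). The genes that fell numbered 1 without knockdown 1, 0 without knockdown 2 (where Tefm had adjusted p = 0.0532 in limma), 6 without control 1 (where 2 rose), 7 without control 2 (where 3 rose) and 4 in edgeR.

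Of 22 genes of mitochondrial RNA processing, polyadenylation and decay 3 fell and 19 did not pass, with a median log2 change of -0.20. Slirp, a partner of LRPPRC in holding mitochondrial messages, was at 90.8 and 93.4 in knockdown 1 and 2, against 117 and 121.5 in control 1 and 2 (log2 change -0.37, SE 0.08, limma adjusted p = 0.0224). Mtpap, the mitochondrial poly(A) polymerase, was at 36.9 and 39.5 in the knockdown-labelled pair, against 51.2 in control 1 and 50.5 in control 2 (log2 change -0.40, SE 0.10, limma adjusted p = 0.0319), and the exoribonuclease Rexo2 fell by 0.44 on the log2 scale (limma adjusted p = 0.0262). Lrpprc, at 90.2 and 89.3 in the knockdown-labelled pair, lay between 79.6 in control 1 and 102 in control 2 (log2 change -0.00, SE 0.12, limma adjusted p = 0.991), and Pnpt1, the polynucleotide phosphorylase, did not pass (log2 change 0.08, limma adjusted p = 0.581). Of 19 genes that modify mitochondrial transfer or ribosomal RNA 2 fell and 17 did not pass, with a median log2 change of -0.16. They were Nsun2, a transfer RNA cytosine methyltransferase that also acts on nuclear-encoded transfer RNAs (log2 change -1.09, limma adjusted p = 0.00507), and Mrm2, a 16S RNA methyltransferase (-0.52, adjusted p = 0.0291). The shares that fell in the transcription, processing and modification lists were 22.2%, 13.6% and 10.5%, against 12.4% of all genes tested. The processing genes that fell numbered 0 without knockdown 1 or knockdown 2, 13 without control 1 and 8 without control 2 (where 1 rose), and the modification genes 1 without knockdown 1, 1 without knockdown 2, 7 without control 1 and 7 without control 2, with 2 that rose in each of these last fits. With TMM recomputed or with DESeq2 size factors, the 8 of these 9 genes that were refitted (without Tfb1m) still passed. With upper-quartile scaling Mterf3 did not (adjusted p = 0.05155 in limma), and after thinning Mtpap and Mrm2 did not. Of the 8, only Tefm and Nsun2 passed without a variance trend, and only they passed in DESeq2's test. The others had adjusted p = 0.0518 to 0.0845 in limma without the trend and 0.0627 to 0.129 in DESeq2. With library size only, which moves all genes alike and put their median log2 change at 0.10, against -0.01 in the scaling used here, Tefm and Nsun2 still passed, the other 7 named here as fallen did not, and 1 transcription gene and 1 modification gene rose.

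The nuclear genes of the same protein complexes were compared by count. Of 84 nuclear-encoded subunits of oxidative phosphorylation tested, 2 rose and 3 fell, which is 5.95% against 23% over all genes, with a median log2 change of -0.01. The 5, named after their values were seen, were Cox6b2 and Cox8c, which rose, and Ndufs4, Ndufs1 and Atp5pb, which fell. With library size only, 8 rose and 1 fell. Without control 1 there were 10 that rose and 17 that fell, without control 2 there were 13 of each, and without knockdown 1 or knockdown 2 there was 1 that rose and 0 that fell. Of 75 mitochondrial ribosomal protein genes tested 16 fell (21.3%, against 12.4% of all genes tested) and the other 59 did not pass, with a median log2 change of -0.17, and with library size only 7 fell and 2 rose. Without control 1 or control 2, 35 and 27 of the ribosomal protein genes fell while 4 and 8 rose, and without knockdown 1 or knockdown 2 there were 3 and 1 that fell.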

How the data were processed

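The table holds 4 columns of values. The authors' tools, named with no role in the submitters' processing notes, were HTSeq 0.11.2, Bowtie2 2.3.4.3, edgeR 3.26.8 and SAMtools 1.9, on build mm9. The sources used here give neither their annotation nor their strand setting. The deposited signal is gene counts on an effective library size, as its values show: 100% are whole multiples of 1 read within 0.001. Per the file headers, the authors' deposited comparison gives a p-value, a log2 fold change, a likelihood ratio (a score) and a mean log2 CPM.

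Because the values are normalized, limma 3.58.1 in R 4.3.3, with a variance trend, was applied to log2(value + 1) of all 4 samples (2 per group) for the 14890 genes that passed edgeR 4.0.16's filterByExpr on recovered reads. Fold changes on this scale understate those of low rows. Tests were two-sided with Benjamini-Hochberg adjustment over all genes and a threshold of 0.05. On the recovered reads, edgeR's quasi-likelihood test called 3742 genes and limma on the values 3418; DESeq2 1.42.0 was an alternative. Gene IDs, positions and sequences came from GENCODE M21, whose transcripts were searched for shared 100-base windows on both strands. Replicate agreement was checked (chi-square per degree of freedom 2.00 in the knockdown pair, 13.3 in the control pair), so no library was treated as a duplicate. The method was also run on data simulated with the same spread in both groups. That run does not cover the unequal spread of the 2 pairs here.

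Every mt- row counts as a member; protein genes, ribosomal RNAs and transfer RNAs that passed the filter were named, and in the machinery lists named factors and up to 3 called genes per direction. Members and lists were chosen with earlier results of these data known. Alternatives covered scaling, pseudocount, filter, variance model, test, depth, each library left out and a replicate block.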

Additional observations from a re-analysis of the deposited data

How the results depend on the processing

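The 2 ribosomal RNAs were called under all 18 alternatives. For the 15 members tested, under settings other than a library left out, 191 values kept their direction and side of the threshold, 8 turned, 4 gained a call and 1 lost it. The count of genes called was 1932 without a variance trend, 2219 with DESeq2 and 653 to 7724 with one library left out, where the spread comes from fewer libraries. The protein genes called numbered 1 with DESeq2, 2 with the replicate block and 0 to 5 with one library left out, and the transfer RNAs called 1 after thinning and 0 to 4 with one library left out; DESeq2 gave no adjusted p for 5 of the 6 transfer RNAs. The log2 ratio of class sums ran from -0.0891 to 0.24 for protein genes, from -1.37 to -0.94 for ribosomal RNAs and from 0.55 to 1.47 for transfer RNAs with one library left out. Eif4a2 did not pass without a variance trend (log2 change 0.80, adjusted p = 0.0581 in limma).

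Signs of small changes turned as follows, and the cause was not tested. With library size only, where the median over all genes was 0.10 and not -0.01, the log2 change was 0.0280 for mt-Nd1, 0.0384 for mt-Ty and 0.12 for Lrpprc, and with totals without mitochondrial rows it was 0.0290, 0.0391 and 0.12. With upper-quartile scaling it was 0.00435 for mt-Ty and 0.0357 for Lrpprc, with DESeq2 size factors 0.0138 for Lrpprc, and with a pseudocount of 0.25 it was 0.0184 for mt-Ty. In edgeR it was -0.37 for mt-Ta, -0.00334 for mt-Nd6 and 0.0147 for Lrpprc, in DESeq2 0.0166 and after thinning 0.0228 for Lrpprc. With one library left out, it ranged from -0.57 to 0.75 for mt-Ta, from -0.33 to 0.30 for mt-Ty, from -0.18 to 0.29 for mt-Co1, from -0.30 to 0.37 for mt-Nd6, from -0.0377 to 0.0467 for mt-Cytb and from -0.18 to 0.17 for Lrpprc.

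Replicate numbers gave no evidence of pairing (correlation of the replicate differences 0.0356 across genes), so the replicate block, which called 4632 genes, 2 protein genes (mt-Nd4 and mt-Nd5), both ribosomal RNAs and 3 transfer RNAs, is given here alone. Depth limits the transfer RNAs: control 2, with 4604200 reads, held 19 of theirs.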
